A study of Homo sapiens with 18 samples.

Results

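EGR1, EGR2, EGR3 and EGR4, the early growth response transcription factors, and NAB1 and NAB2, the corepressors that bind them, were followed across RNA-seq libraries of Hep3B cells. Hep3B is a human hepatoma line. The 6 genes were picked out of 36684 gene symbols in the count table, and 4 of them passed the filter on low counts that left 14557 genes for testing. The family was chosen by the values of EGR2. It had been a differentially expressed gene (DEG, adjusted p below 0.05 together with a log2 fold change, log2FC, beyond 1 in either direction) between the model and control groups and between each FUCO group and the model. Those comparisons used its values in all Con, Model and FUCO libraries, so EGR2 is described without a p wherever only these groups are compared. It was tested only in the comparisons with RES, the group that did not enter the choice. The Model and Con libraries on the other side of those comparisons did enter it, so these p-values are not free of it. The other 5 genes were taken by family name.

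The 18 libraries form 6 groups of 3. Con is the control without fatty acid, and Model cells received free fatty acids (FFA), which load them with lipid. The FUCO-0.5, FUCO-1 and FUCO-2 groups received FFA together with fucoxanthin, a carotenoid of brown algae, at 0.5, 1 and 2 μM. RES cells received FFA together with Resmetirom, an agonist of the liver form of the thyroid hormone receptor. All 6 groups come from the 1 line, so each group of 3 shows the spread between cultures of that line and not between people. The FFA concentration, the RES dose and the treatment times are stated for other experiments of the study and not for these libraries.

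EGR proteins are zinc finger transcription factors of the immediate early class. Their genes are transcribed within minutes of a growth factor or stress signal, largely through the ERK pathway and the serum response factor (SRF), which binds CArG boxes together with ternary complex factors such as ELK1. They bind a GC-rich element. NAB1 and NAB2 dock on EGR1, EGR2 and EGR3, recruit the NuRD chromatin remodelling complex and hold back EGR activity. NAB2 is itself a known EGR target, which closes a feedback loop. In liver, EGR1 is known for responses to injury, feeding and insulin, and EGR2 is best known for myelination and immune tolerance.

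The sequences before 3 of the members' start sites are shown here, since they carry the elements through which this class is known to be switched on or to act back. Windows of 250 bases before annotated RefSeq start sites (GRCh38.p14) were available for 5 members, EGR3 having none, and 9 windows were searched on both strands. The letters searched were TGACG for the CRE half-site that CREB binds and GCGNGGGCG for the EGR element, and the CArG box was searched by its name's usual consensus. EGR1 lies on chromosome 5 from 138465479 to 138469303 on the + strand. The window printed ends at the base before its start and lies in no GENCODE v44 exon of EGR1. Exons of other genes were not checked. EGR2 lies on chromosome 10 from 62811996 to 62819167 on the − strand and has 3 annotated starts. The window shown is that of the start at 62816366, the only 1 of the 3 with a match, and 7 of its bases lie in an exon of another EGR2 transcript. NAB2 lies on chromosome 12 from 57089114 to 57095476 on the + strand, and 29 bases around its single EGR element are printed. The 71 bases of its window nearest the start, this element included, lie in a GENCODE v44 exon of NAB2. Capitals mark CArG boxes, CRE half-sites and EGR elements, on whichever strand they were found.
EGR1, chr5:138465229-138465478, +: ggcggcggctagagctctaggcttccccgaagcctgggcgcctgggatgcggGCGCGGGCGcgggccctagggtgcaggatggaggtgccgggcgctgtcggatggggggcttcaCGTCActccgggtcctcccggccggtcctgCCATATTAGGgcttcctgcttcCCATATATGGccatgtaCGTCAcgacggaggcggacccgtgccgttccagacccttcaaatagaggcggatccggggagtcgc
EGR2, chr10:62816367-62816616, −: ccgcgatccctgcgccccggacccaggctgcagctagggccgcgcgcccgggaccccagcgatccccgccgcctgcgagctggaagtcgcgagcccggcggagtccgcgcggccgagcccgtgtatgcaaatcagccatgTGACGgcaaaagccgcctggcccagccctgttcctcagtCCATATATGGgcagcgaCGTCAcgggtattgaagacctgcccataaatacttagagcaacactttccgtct
NAB2, chr12:57089042-57089070, +: tgtgcgtcctGCGGGGGCGgaggcgcgga

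The EGR1 window held 2 CArG boxes, at bases −105 to −96 and −83 to −74 from the start. A single CArG box stood at −71 to −62 of the EGR2 window, with the same letters as the EGR1 box nearer the start. CArG boxes were found in 1.16% of 35116 such windows of 27305 genes, and 0.0313% of the windows held 2 or more. Each of these EGR1 and EGR2 windows held 2 CRE half-sites, which 21.2% of all windows hold at least once. EGR elements were found in 8.41% of all windows. Among the members they stood once in the EGR1 window (−198 to −190), once in that of NAB2 (−62 to −54) and in 2 of the 3 NAB1 windows, where some overlap each other. These 2 NAB1 windows overlap on the chromosome, so some elements are the same bases found in both. EGR4 had 2 CRE half-sites and neither of the other elements. These are matches of letters in fixed windows, and binding was not measured.

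**Figure D1:**
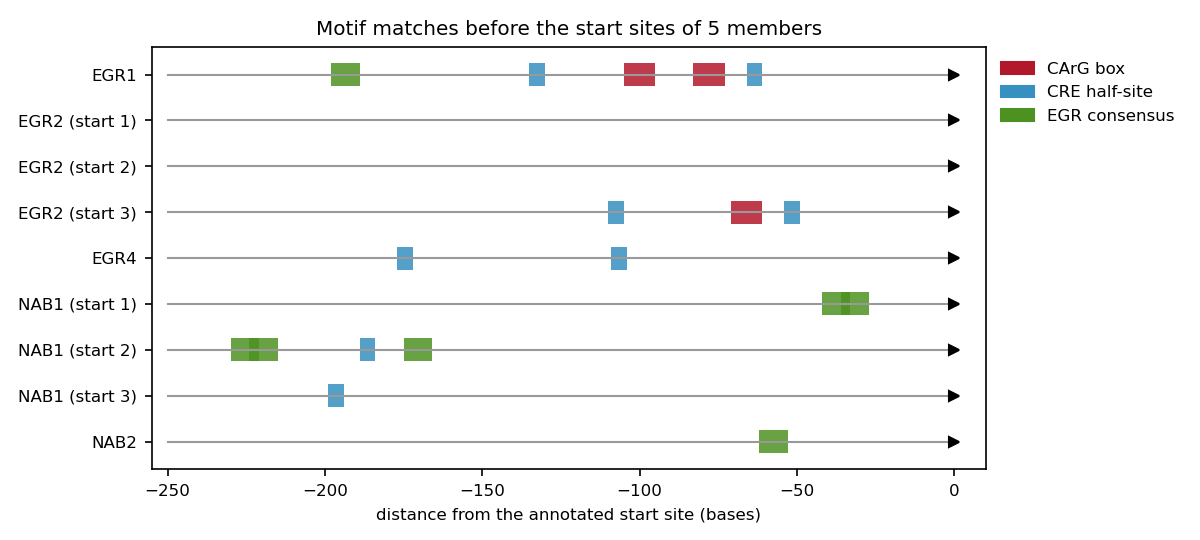
Position of motif matches (boxes) in the 250 bases before each annotated start site (arrowhead at 0) of 5 members; the x axis is the distance from the start in bases, and genes with several starts have a line for each. CArG boxes appear only on the lines of EGR1 and of the start at 62816366 of EGR2, and EGR elements on those of EGR1, NAB1 and NAB2. Where windows of NAB1 overlap, the same element appears on more than 1 line.

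The libraries held between 16916688 and 23083498 counts, and levels are given as CPM, counts per 1e6 after TMM scaling of the libraries, as mean ± SD of 3 libraries. The hepatoma markers were present throughout, with ALB at 137652 to 744342 counts. MARCO, CDH5 and KDR were at 0 in every library, and PTPRC, CD68 and CSF1R at no more than 7 counts. PECAM1, the 1 tested of 4 endothelial markers, had 3 to 36 counts and rose by 1.78 on the log2 scale in Model against Con (adjusted p = 0.00488). Of the whole marker lists, the summed level of 10 hepatocyte markers was 62679 to 70562 CPM in Con, 51996 to 52467 in Model, 35149 to 39430 in FUCO-2 and 15199 to 15614 in RES. The summed level of 6 macrophage markers was 4.26 to 6.68 CPM outside RES and 12.1 to 14.3 CPM in RES, where it is mostly CD14. That of 5 fibroblast markers, over all libraries mostly PDGFRB and LUM, was 28.1 to 36.7 CPM in Con, 18.5 to 20.4 in Model, 15.5 to 19.9 with FUCO and 11.3 to 13.8 in RES. In RES against Model, where 49.4% of all genes were called, 2 of the 4 tested fibroblast markers were called higher and 1 lower. The summed level of 4 T cell markers, mostly CD4, was 2.81 to 3.64 CPM in Con, 1.48 to 1.61 in Model, 1.21 to 2.17 with FUCO and 0.700 to 1.26 in RES. The part of these shifts in the members' values was not tested. All libraries are of Hep3B, so these sums describe RNA levels in cultures of 1 line and not numbers of other cell types. P-values come from edgeR's quasi-likelihood test with Benjamini-Hochberg adjustment over all 14557 genes, and SE is the standard error of a log2FC. Comparisons against Model share its 3 libraries, and those against Con share its 3.

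EGR1 had high counts in these cells, EGR2 was scarce, and EGR3 and EGR4 were close to absent. Summed over 18 libraries, EGR1 had 250757 counts, NAB1 20895, NAB2 12432 and EGR2 1068, against 5 for EGR3 and 5 for EGR4. In CPM, which is not corrected for gene length, the mean level of EGR1 was above that of 99.3% of the tested genes, that of EGR2 above 20.3%, that of NAB1 above 74.8% and that of NAB2 above 61.2%. On a per-length scale (CPM per kilobase of exon), Model cells held 292 of EGR1, 1.91 of EGR2, 12.8 of NAB1 and 10.5 of NAB2. The per-length level of EGR1 was therefore 153 times that of EGR2 in Model and 839 times in FUCO-1, the group with the widest gap.

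EGR3 and EGR4 had too few counts for a test. EGR3, a close relative of EGR2, had 1 count in Model replicate 2, 1 in FUCO-2 replicate 2, 1 in RES replicate 1 and 2 in RES replicate 2, and it was at 0 in the other 14 libraries. EGR4 had 3 counts in Con replicate 1, 1 in Con replicate 3 and 1 in FUCO-0.5 replicate 1, and was at 0 in the other 15. A count of 0 allows up to 3 counts, which is 0.121 to 0.179 CPM per library. No difference between groups was detectable at this depth for either gene, and a group with 4 counts of EGR4 (Con, exact Poisson interval 1.09 to 10.2) is not separated from a group with 0 (0 to 3.69).

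The count of members called follows here for each comparison, beside the share of all tested genes called (adjusted p under 0.05, either direction). Where EGR2 is only described, 3 members were tested. Model against Con called 1 of 3, EGR1, with 17.6% of all tested genes called. FUCO-0.5 against Model called 1 of 3, EGR1, with 1.45%. FUCO-1 against Model called 1 of 3, again EGR1, with 3.21%. FUCO-2 against Model called 2 of 3, EGR1 and NAB2, with 20.5%. RES against Model called 2 of 4, EGR1 and NAB2, with 49.4%, which leaves the members near the background of that comparison. FUCO-0.5 and FUCO-1 against Con each called EGR1, 1 of 3, with 21.9% and 18.3%. FUCO-2 against Con called NAB2, 1 of 3, with 24.8%, and RES against Con called 4 of 4 with 57.3%. EGR2 is 1 of these 4, and the Con libraries had entered its choice. Between doses, FUCO-2 against FUCO-1 called EGR1, 1 of 3, with 6.3%. FUCO-1 against FUCO-0.5 called 0 of 3 with edgeR and with DESeq2, with 0.00687% of all genes called. At an unadjusted p under 0.05 it was 1 of 3, EGR1, with 10.7% of all genes.

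**Figure D2:**
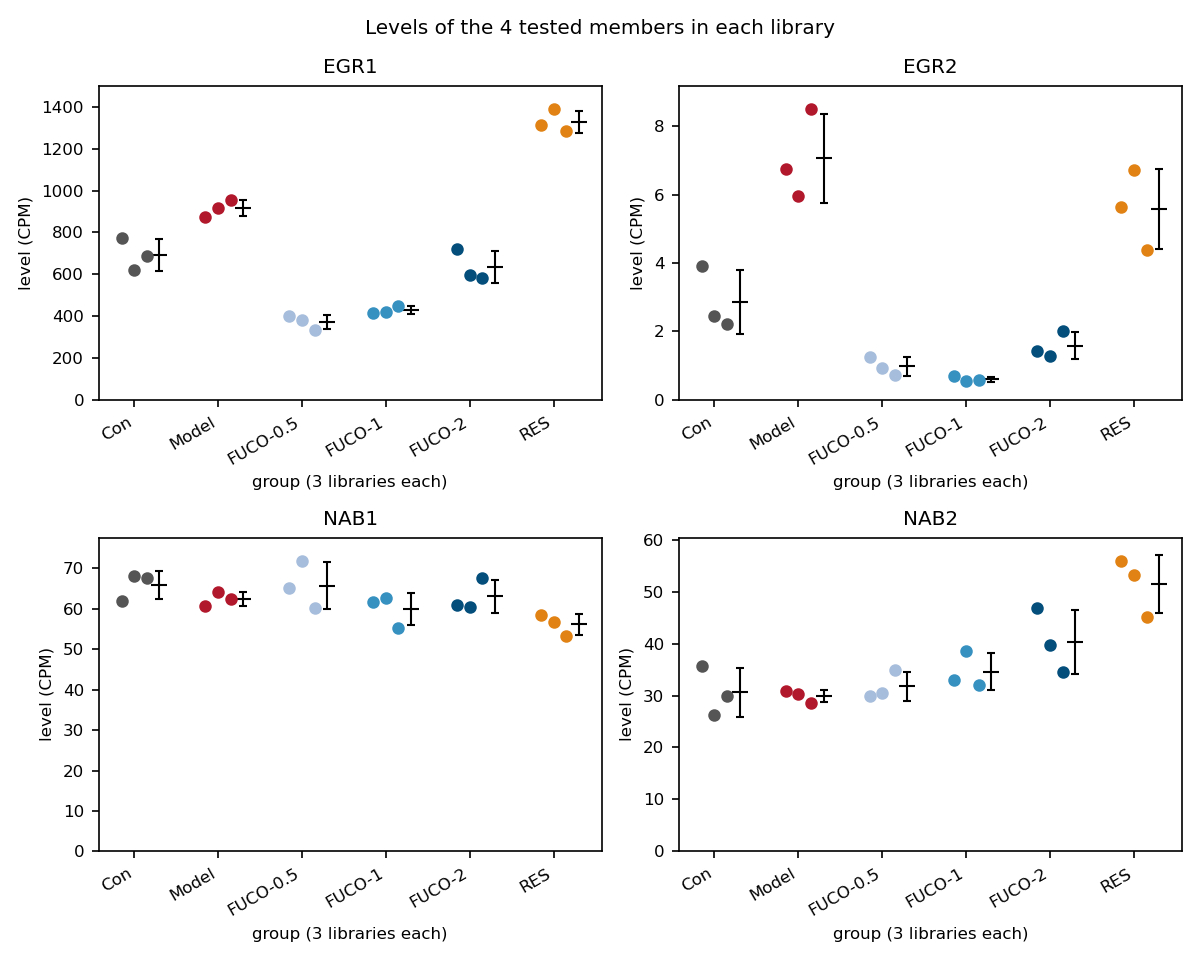
Level in CPM (y axis, from 0) of EGR1, EGR2, NAB1 and NAB2 in each of the 3 libraries of the 6 groups (points), with mean ± SD beside them. EGR1 and EGR2 are high in Model and RES and low in FUCO-0.5 and FUCO-1, NAB1 is between 53.4 and 71.9 CPM in all 18 libraries, and NAB2 is highest in RES.

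EGR1, the most abundant member and the one studied most as an early responder to growth factors, was higher with FFA, lower with FUCO and highest with RES. Its levels were 772, 619 and 687 CPM in the 3 Con libraries and 875, 918 and 955 in Model. Every Model library lay above every Con library, and 35.7% of all tested genes did not overlap, in either direction, between these groups. EGR1 rose 1.32-fold in Model, a log2FC of 0.40 (SE 0.088, adjusted p = 0.00220).

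FUCO-0.5 libraries held 400.1, 384 and 334 CPM of EGR1, and FUCO-1 libraries 414, 422 and 449. All 6 were below the lowest Model library and also below the lowest Con library. For comparison, 19.6% and 23.3% of all genes did not overlap between Model and these groups. The mean of EGR1 was 40.7% of that in Model in FUCO-0.5 (log2FC −1.30, SE 0.090, adjusted p = 5.62e-10) and 46.8% in FUCO-1 (log2FC −1.10, SE 0.089, adjusted p = 5.62e-09). By the study's DEG rule, which 0.268% and 0.495% of all genes met in these comparisons, EGR1 was a DEG in both. Against Con, EGR1 fell by 0.89 on the log2 scale in FUCO-0.5 (SE 0.089, adjusted p = 9.19e-08) and by 0.69 in FUCO-1 (SE 0.089, adjusted p = 4.64e-06), where 35.2% and 30.1% of all genes did not overlap.

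FUCO-2 libraries stood higher, at 723, 598 and 582 CPM of EGR1. They were above all FUCO-1 libraries, below all Model libraries and overlapped Con. The fall against Model was 0.53 on the log2 scale (SE 0.089, adjusted p = 0.000148), in a comparison where 36.3% of all genes did not overlap. From FUCO-1 to FUCO-2 EGR1 rose 1.48-fold (log2FC 0.57, SE 0.089, adjusted p = 0.000300), with 20.3% of all genes not overlapping. No difference from Con passed the test at 2 μM (log2FC −0.13, 2 SE either side −0.30 to 0.050, adjusted p = 0.324). Between FUCO-0.5 and FUCO-1 it did not pass either, with a log2FC of 0.20 (0.024 to 0.38 within 2 SE, adjusted p = 0.420).

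RES libraries had the highest EGR1, at 1312, 1389 and 1285 CPM, all above the 15 others. The rise over Model was 1.45-fold (log2FC 0.54, SE 0.088, adjusted p = 2.02e-05) and over Con 1.92-fold (0.94, SE 0.089, adjusted p = 2.71e-09). Of all genes, 64% and 64.6% did not overlap in these comparisons, so RES libraries stood apart in most of the transcriptome. Scaling by total counts, without TMM, moved the median of all genes by 0.13 against Model and 0.19 against Con for RES, and by 0.11 for FUCO-2 against Con. Each call of EGR1 remained under all 26 alternative fits. The DEG rule, a stricter threshold and not among those 26, was met by EGR1 only in FUCO-0.5 and FUCO-1 against Model.

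EGR2, the member the study links to the fatty acid transporter CD36, had the widest range of the family, although it rested on few counts. Con libraries held 68, 41 and 41 counts of EGR2 (2.22 to 3.93 CPM), and Model libraries 123, 107 and 157 (5.95 to 8.50 CPM). FUCO-0.5 libraries held 23, 18 and 13 counts (0.726 to 1.26 CPM). FUCO-1 libraries held 14, 10 and 10 (0.546 to 0.693 CPM), and FUCO-2 libraries 25, 24 and 35 (1.28 to 2.02 CPM). RES libraries held 140, 125 and 94 counts (4.38 to 6.73 CPM). Model libraries were above all Con libraries, every FUCO library was below every Con library, and Model and RES overlapped. Of all genes, 35.7% did not overlap between Model and Con. Between FUCO-0.5, FUCO-1 and FUCO-2 and Con, it was 35.2%, 30.1% and 33.9%.

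The 4 comparisons that chose EGR2 are described without a test. Its mean was 2.47 times that of Con in Model (7.07 ± 1.31 against 2.87 ± 0.929 CPM), a log2FC of 1.30 (SE 0.21). Against Model it was 13.8% at 0.5 μM (0.976 ± 0.270 CPM, log2FC −2.85, SE 0.25), 8.54% at 1 μM (0.604 ± 0.0787 CPM, −3.53, SE 0.27) and 22.4% at 2 μM (1.58 ± 0.393 CPM, −2.16, SE 0.23). At 0.5 and 1 μM EGR2 had the largest absolute log2FC of all 14557 genes tested, and at 2 μM it ranked 16. These ranks come from the comparisons that chose EGR2, so they describe the choice and give it no further support.

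The comparisons of FUCO with Con and between doses reuse the libraries that chose EGR2 and are described too. Against Con the log2FC was −1.54 in FUCO-0.5 (SE 0.28) and −2.22 in FUCO-1 (SE 0.31). At 2 μM EGR2 was 55.2% of Con (log2FC −0.86, SE 0.26), in a comparison where 33.9% of all genes did not overlap. Without Con replicate 1, the Con library with the most EGR2, this value was −0.56.

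The mean of EGR2 was 2.62 times as high in FUCO-2 as in FUCO-1 (log2FC 1.37, SE 0.34), and the log2FC was no lower than 1.15 with single libraries left out. Between FUCO-0.5 and FUCO-1 the libraries did not overlap, which held for 14.2% of all genes, and the log2FC was −0.68 (2 SE either side −1.43 to 0.071). The comparisons with RES were tested, although their Model and Con libraries had entered the choice, so these p-values are not free of it. The choice favoured high EGR2 in Model and low EGR2 in Con, so both p-values serve as description only. With RES the mean was 5.59 ± 1.17 CPM, 79.1% of Model (log2FC −0.34, 2 SE either side −0.72 to 0.032, adjusted p = 0.134) and 1.95 times Con (0.96, SE 0.21, adjusted p = 0.000444). EGR1 and EGR2 thus lay on the same side of Con in Model and on the same side of Model with FUCO, and in RES EGR1 passed the test against Model and EGR2 did not. Whether their response to RES differed was not tested.

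**Figure D3:**
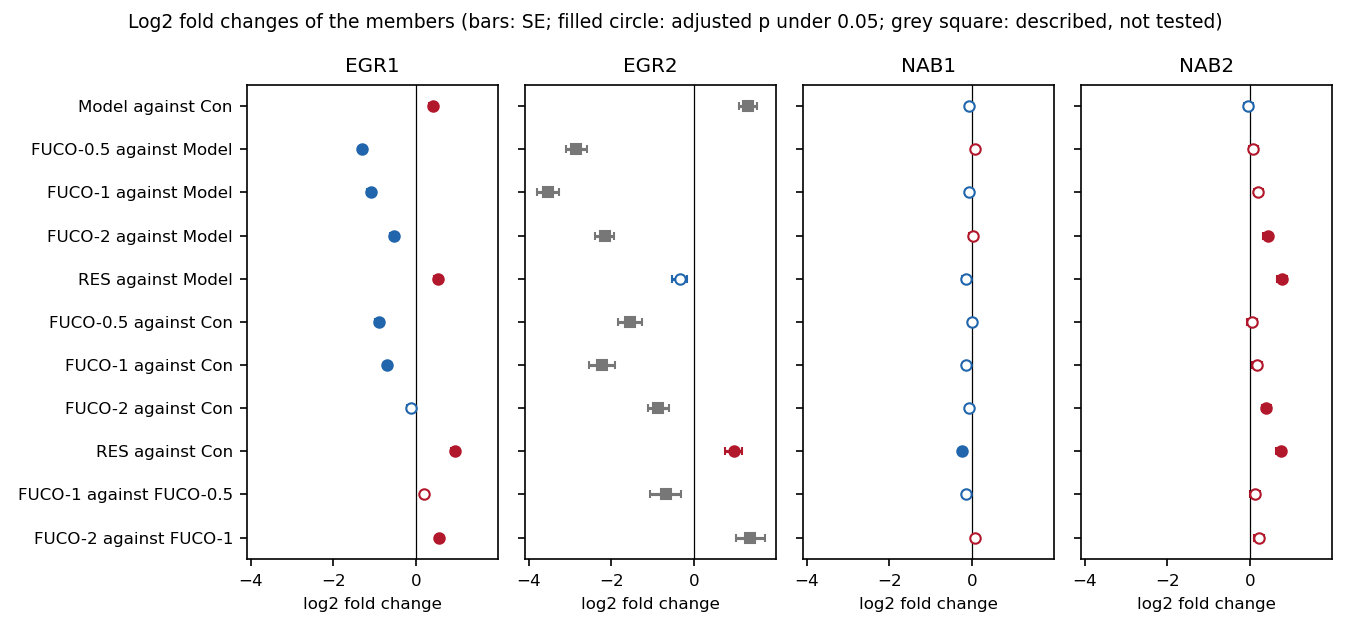
Log2 fold change (x axis) with its SE (bars) of the 4 tested members in 11 comparisons (rows), red above 0 and blue below. Filled circles have an adjusted p under 0.05, and grey squares are the 9 EGR2 values that are described and not tested. EGR1 and EGR2 lie below 0 with FUCO against Model, NAB1 stays near 0 and NAB2 lies above 0 with FUCO-2 and RES.

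NAB1, a corepressor of EGR1 and EGR2, had the narrowest range of the 4 tested members. Its level was 65.9 ± 3.40 CPM in Con, 62.5 ± 1.69 in Model, 65.8 ± 5.84, 59.9 ± 4.03 and 63.1 ± 4.02 at 0.5, 1 and 2 μM FUCO, and 56.2 ± 2.57 in RES. The lowest group mean was within 1.17 times of the highest, against 11.7 times for EGR2, 3.57 times for EGR1 and 1.72 times for NAB2. In the 4 comparisons of Model with Con and of FUCO with Model, the log2FCs of NAB1 ran from −0.077 to 0.074, each with an SE of 0.077, and none was called. The 1 call among the 11 comparisons was RES against Con, where all RES libraries (58.4, 56.9 and 53.4 CPM) lay below all Con libraries (62.0, 68.0 and 67.7). In that comparison 64.6% of all genes did not overlap. The call of NAB1 amounted to a log2FC of −0.23 (SE 0.077, adjusted p = 0.0139). Without RES replicate 3 this call was lost (adjusted p = 0.0713), and with total count scaling, which moved the median of all genes by 0.19, the value was −0.036 (adjusted p = 0.696). RES against Model was not called (log2FC −0.15, adjusted p = 0.107), but was with only those 2 groups in the fit (adjusted p = 0.0201).

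NAB2, the corepressor known as an EGR target, was higher at 2 μM FUCO and with RES, and no difference between Con and Model passed the test. Con libraries held 35.7, 26.3 and 29.9 CPM and Model libraries 30.8, 30.4 and 28.6, with a log2FC of −0.034 (2 SE either side −0.27 to 0.20, adjusted p = 0.880). FUCO-0.5 libraries held 29.9, 30.5 and 35.0 CPM, and FUCO-1 libraries 33.0, 38.6 and 32.0. Against Model the log2FC was 0.086 in FUCO-0.5 (adjusted p = 0.863) and 0.21 in FUCO-1 (adjusted p = 0.390). The FUCO-1 libraries lay above all Model libraries, in a comparison where 23.3% of all genes did not overlap. EGR1 thus fell in FUCO-0.5 and FUCO-1 while NAB2 passed no test in either direction.

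FUCO-2 libraries held 46.8, 39.8 and 34.5 CPM of NAB2, all above the Model libraries and overlapping Con. Of all genes, 36.3% did not overlap between FUCO-2 and Model. NAB2 rose 1.35-fold over Model (log2FC 0.43, SE 0.115, adjusted p = 0.00954) and 1.32-fold over Con (0.40, SE 0.115, adjusted p = 0.0134). Without FUCO-2 replicate 1 the calls were lost (0.31, adjusted p = 0.0628, against Model, and 0.28, adjusted p = 0.0885, against Con), as was the call against Con without Con replicate 2 (adjusted p = 0.0901) and with only those 2 groups in the fit (adjusted p = 0.0652). The difference between FUCO-2 and FUCO-1 did not pass the test (log2FC 0.22, SE 0.114, adjusted p = 0.278).

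RES libraries held 56.0, 53.1 and 45.2 CPM of NAB2. They lay above all Model and Con libraries, and their range overlapped that of FUCO-2. Of all genes, 64% did not overlap between RES and Model and 64.6% between RES and Con. The rise was 1.72-fold over Model (log2FC 0.78, SE 0.114, adjusted p = 3.83e-06) and 1.68-fold over Con (0.75, SE 0.114, adjusted p = 4.86e-06), and both calls remained under all 26 alternatives. The 3′ end of NAB2 overlaps STAT6 on the opposite strand by 69 bases (chromosome 12, 57095408 to 57095476), and whether counting used the strand is not stated. STAT6 itself rose by 0.29 with RES against Model (SE 0.085, adjusted p = 0.00719) and by 0.18 with FUCO-2, which was not called (adjusted p = 0.146). EGR1, EGR2 and NAB1 overlap no other RefSeq gene.

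Ratios within a library need no scaling between libraries. NAB2 counts per NAB1 count were 0.576, 0.387 and 0.441 in Con and 0.507, 0.474 and 0.458 in Model. They were 0.459, 0.424 and 0.581 at 0.5 μM, 0.534, 0.616 and 0.580 at 1 μM, and 0.766, 0.657 and 0.509 at 2 μM. RES libraries had 0.959, 0.935 and 0.846, above all others. In log2 units the ratio was higher than in Model by 0.27 at 1 μM, by 0.41 at 2 μM and by 0.93 with RES, and the libraries did not overlap in any of the 3. The two-sided exact permutation test gave p = 0.1 for each, the smallest that 3 against 3 allows, and 0.275 after adjustment over the 11 comparisons. These comparisons cannot reach 0.05.

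The balance of EGR1 to NAB2 was lower with FUCO. These ratios of counts are not corrected for gene length and compare groups, not genes. EGR1 counts per NAB2 count were 22.7 ± 0.976 in Con and 30.7 ± 2.52 in Model. They were 11.8 ± 2.04, 12.5 ± 1.54 and 15.8 ± 0.963 at 0.5, 1 and 2 μM FUCO, all 9 FUCO libraries (9.54 to 16.9) being below the lowest Con library (21.6). In RES, where EGR1 and NAB2 were both at their highest, the ratio was 26.0 ± 2.51, between Con and Model. EGR1 counts per EGR2 count were 253 ± 56.6 in Con, 132 ± 21.1 in Model, 395 ± 72.4, 719 ± 105 and 419 ± 115 with rising FUCO dose and 244 ± 44.6 in RES. No test was made of either ratio, so the values are descriptions. The ratio of EGR1 to EGR2 also uses EGR2, which was chosen for its change.

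**Figure D4:**
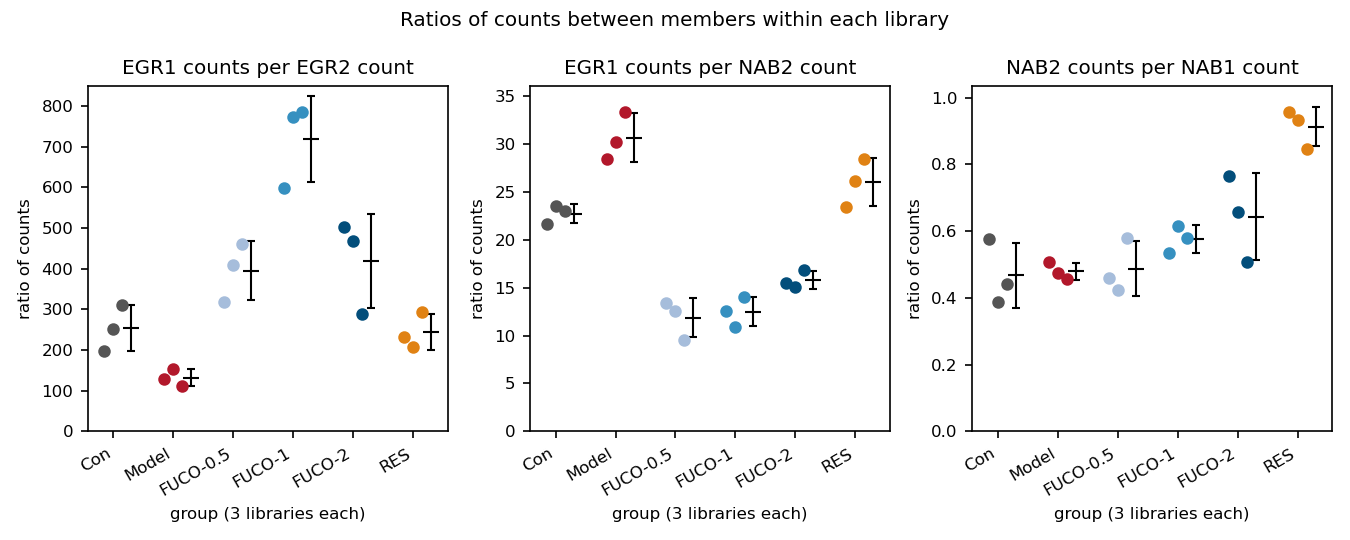
Ratio of counts (y axis, from 0) of EGR1 to EGR2, EGR1 to NAB2 and NAB2 to NAB1 in each library (points), with mean ± SD of the 3 libraries of a group. EGR1 counts per EGR2 count were lowest in Model and highest in FUCO-1, and NAB2 counts per NAB1 count were highest in RES.

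Other immediate early genes rose with FFA and fell with FUCO in most cases. Of 18 listed, 16 were tested. With FFA, 11 were called higher and 0 lower, with a median log2FC of 0.62 against 0.0011 over all genes. This was 68.75% of the list, beside 17.6% of all genes called. IER3, an early gene of cell survival, rose by 1.13 (SE 0.21, adjusted p = 0.000502) and NR4A1, an orphan nuclear receptor, by 1.04 (SE 0.16, adjusted p = 4.69e-05). At 0.5 μM FUCO 0 were called higher and 13 lower than in Model (median −0.91), and at 1 μM again 0 and 13 (median −1.16). Each was 81.25% of the list, beside 1.45% and 3.21% of all genes. KLF2, a Krüppel-like factor, fell by 2.05 on the log2 scale in FUCO-0.5 (adjusted p = 4.46e-08) and by 2.74 in FUCO-1 (adjusted p = 4.35e-10).

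At 2 μM the list divided. Against Model 10 were called lower and 2 higher (median −0.49), 75% of the list beside 20.5% of all genes. KLF2 was still lower by 2.12 (adjusted p = 2.06e-08), while FOSL1, a FOS family member, was higher by 1.49 (adjusted p = 0.000919). Without FUCO-2 replicate 2 the count called lower was 6. From FUCO-1 to FUCO-2, 13 rose and 0 fell (median 0.61), 81.25% of the list beside 6.3% of all genes, and EGR1 rose too. RES against Model gave 3 higher and 4 lower (median −0.025), the count called lower being 1 without Model replicate 1 or without TMM scaling, and 2 with DESeq2 and without RES replicate 1 or replicate 3. These 7 of 16 lie near the 49.4% of all genes called there. RES against Con gave 10 higher and 0 lower, 62.5% of the list beside 57.3% of all genes. This list and the others were chosen with results known, so their counts are descriptions.

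Upstream of the family, the 15 genes for EGFR, the RAF, MEK and ERK kinases, SRF, its ELK partners and CREB1 were called about as often as all genes with FFA and with RES. Model against Con called 1 higher and 2 lower (median −0.065), 20% of the list beside 17.6% of all genes, with BRAF lower by 0.41 (adjusted p = 0.00184) and ELK3 higher by 0.34 (adjusted p = 0.0421). At 0.5 and 1 μM FUCO edgeR called 0, with 2 and 1 at an unadjusted p under 0.05, and DESeq2 called 1 and 0. Of all genes, edgeR called 1.45% and 3.21% at these doses, and 11.3% and 16.3% had an unadjusted p under 0.05. At 2 μM 1 was called higher and 1 lower, 13.3% of the list beside 20.5% of all genes, and MAP2K1, a MEK gene, rose by 0.26 (adjusted p = 0.0106). RES against Model called 2 higher (4 without TMM scaling) and 6 lower, 53.3% of the list beside 49.4% of all genes, among them MAPK7, which fell by 0.69, and MAPK3, the gene of ERK1, by 0.55. Activity of these kinases was not measured. Counts of 1 or 2 genes in these lists often changed by 1 gene when single libraries were left out.

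The NuRD subunits that NAB proteins recruit were all tested, 12 of 12. FUCO-0.5 and FUCO-1 against Model called 0 with edgeR and with DESeq2, and 0 and 1 had an unadjusted p under 0.05. Of all genes, edgeR called 1.45% and 3.21% in these comparisons, and 11.3% and 16.3% had an unadjusted p under 0.05. FUCO-2 called MTA1 higher by 0.36 (adjusted p = 0.0141), 8.33% of the list beside 20.5% of all genes. Model against Con called 2 higher and 1 lower, 25% of the list beside 17.6% of all genes. CHD3, a remodelling ATPase, fell by 0.32 (adjusted p = 0.00780) and CHD4, its paralog, rose by 0.28 (adjusted p = 0.0313). RES against Model called 0 higher and 6 lower (median −0.20), 50% of the list and so near the 49.4% of all genes, led by RBBP4, a histone-binding subunit, at −0.52 (adjusted p = 4.75e-06) and CHD3 at −0.50 (adjusted p = 1.55e-05). Without TMM scaling the count called lower was 3.

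Of 20 known EGR1 targets, 19 were tested, and they did not move as 1 group. Model against Con called 4 higher and 4 lower (median 0.030), 42.1% of the list beside 17.6% of all genes. FGF2, a growth factor, rose by 1.56 (adjusted p = 8.24e-06) and THBS1, a matrix glycoprotein, by 0.82 (adjusted p = 0.00291). The count called lower was 2 without Con replicate 1, without Model replicate 3 or without TMM scaling. At 0.5 μM FUCO 0 were called higher and 3 lower, and at 1 μM 0 and 2, the latter becoming 5 with only those groups in the fit and 4 with no filter on low counts. In the main fit this was 15.8% and 10.5% of the list, beside 1.45% and 3.21% of all genes. Of the 19, 4 had a log2FC above 0 at 0.5 μM (median −0.15) and 6 at 1 μM (median −0.055). In both, ATF3, a stress-induced bZIP factor, fell most, by 2.06 (adjusted p = 1.73e-10) and 2.37 (adjusted p = 9.27e-12), and GDF15, a stress cytokine, fell by 1.15 (adjusted p = 7.75e-05) and 1.04 (adjusted p = 0.000214).

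FUCO-2 against Model called 6 EGR1 targets higher and 4 lower, 52.6% of the list beside 20.5% of all genes. ATF3 was down by 1.16 (adjusted p = 5.11e-07). The count called higher was 3 without Model replicate 1 or FUCO-2 replicate 1, and the count called lower was 2 without Model replicate 2 or replicate 3. Without TMM scaling 8 were called higher and 2 lower. RES against Model called 5 higher and 9 lower, 73.7% of the list beside 49.4% of all genes, with EGR1 itself higher. Without TMM scaling 8 were called higher and 7 lower, so the balance of the list depends on the scaling. In the main fit of RES against Model, both of the following were called. IGF2, a fetal growth factor, was lower by 3.19 (adjusted p = 1.95e-15) and THBS1 by 2.63 (adjusted p = 5.64e-11). Among EGR2 and EGR3 targets 10 of 12 were tested, most of them myelin genes or genes of immune tolerance. Model against Con called 0 higher and 1 lower, CBLB, a ubiquitin ligase that restrains T cells (−0.47, adjusted p = 0.00762). This was 10% of the list beside 17.6% of all genes. FUCO-0.5 and FUCO-1 against Model, the groups in which EGR2 was lowest, called 0 with edgeR and with DESeq2, and 2 and 3 had an unadjusted p under 0.05. Of all genes, edgeR called 1.45% and 3.21% there, and 11.3% and 16.3% had an unadjusted p under 0.05. At 2 μM 3 were called higher and 1 lower, 40% of the list beside 20.5% of all genes. CEBPB, an adipogenic factor, was at 0.54 (adjusted p = 0.00416) and MBP, the gene of myelin basic protein, at 0.49 (adjusted p = 1.59e-05).

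**Figure D5:**
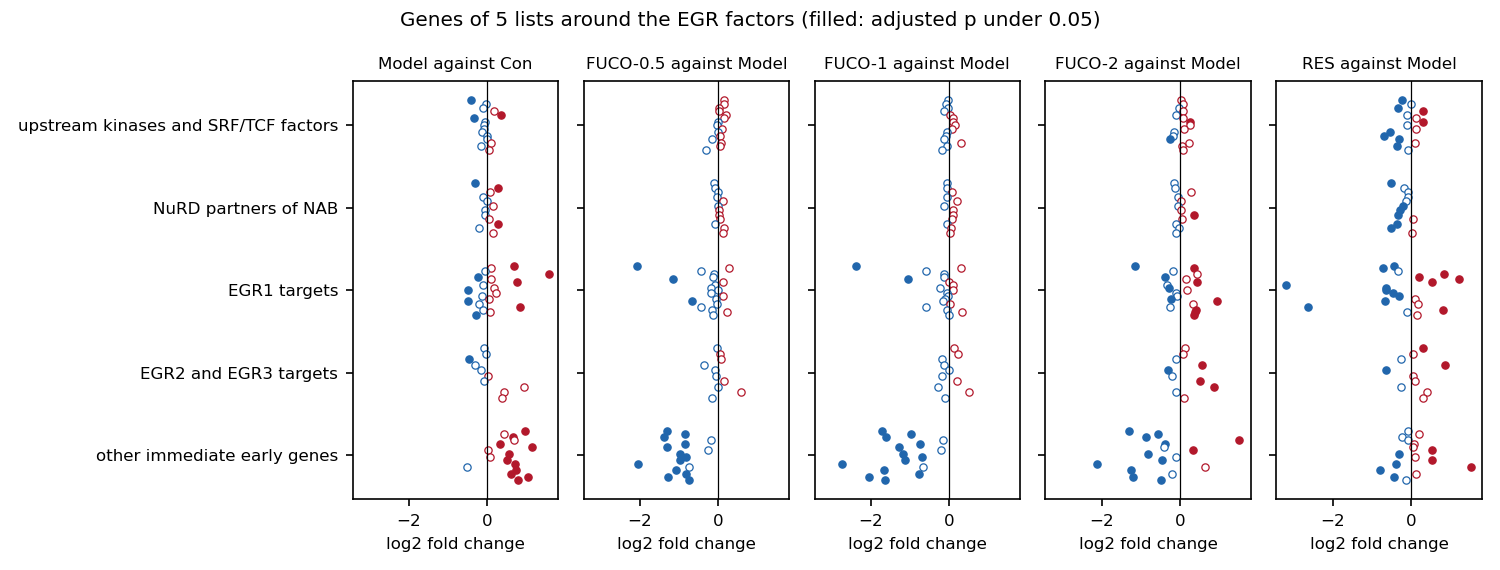
Log2 fold change (x axis) of each tested gene (point) of 5 lists (rows) in 5 comparisons (panels), red above 0 and blue below, filled where the adjusted p is under 0.05. The other immediate early genes lie to the right of 0 with FFA and to the left at 0.5 and 1 μM FUCO, and the upstream and NuRD lists lie close to 0 there. Of the 19 EGR1 targets 4 lie above 0 at 0.5 μM and 6 at 1 μM, with ATF3 and GDF15 farthest below.

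Genes that the study names with EGR2, as measured or as predicted links, were examined too. CD36, the fatty acid transporter, was scarce, and edgeR called it in 0 of the 11 comparisons. Its level was 1.52 ± 1.25 CPM in Con, 1.52 ± 0.402 in Model, 1.70 ± 0.126, 1.87 ± 0.390 and 1.84 ± 0.466 at 0.5, 1 and 2 μM FUCO and 1.54 ± 0.342 in RES. At 1 μM, where EGR2 was lowest, the log2FC of CD36 against Model was 0.30 (SE 0.35, adjusted p = 0.729), and with this SE a moderate change in either direction was not detectable. The study measured CD36 in Hep3B cells by other means, as protein by Western blot and as mRNA by qRT-PCR, along with fatty acid uptake. It reported lower CD36 protein and lower uptake with FUCO. TNF had 1 count in 1 library and was not tested. SREBF1 and SREBF2, the genes of the sterol regulatory element-binding proteins, were lower in Model than in Con, by 0.34 (SE 0.11, adjusted p = 0.0354) and 0.42 (SE 0.074, adjusted p = 0.000253). Of all genes, 17.6% were called in that comparison. At the 3 FUCO doses against Model edgeR and DESeq2 called 0 of CD36, SREBF1 and SREBF2, while 2 at 0.5 μM, 0 at 1 μM and 1 at 2 μM had an unadjusted p under 0.05. Of all genes, edgeR called 1.45%, 3.21% and 20.5% at these doses, and 11.3%, 16.3% and 33% had an unadjusted p under 0.05. With RES against Model, where 49.4% of all genes were called, SREBF1 fell by 1.15 (adjusted p = 8.72e-09) and SREBF2 by 0.49 (adjusted p = 7.00e-06).

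The genes whose levels over the 18 libraries were most like those of EGR1 and EGR2 were other early response genes, by Pearson's r of log2 CPM among 13073 genes with a mean of at least 1 CPM. For EGR1 they were ZFP36 (r = 0.954), IER2 (0.942), GADD45B (0.937), MCL1 (0.937) and KLF10 (0.936). For EGR2 they were TRIB1 (0.968), JUN (0.967), GADD45B (0.964), BTG2 (0.963) and DUSP1 (0.960). The libraries fall into 6 groups that differ in level, so these values describe a shared pattern over groups and no p is given. Without the 3 RES libraries 2 of the 5 EGR1 genes and 3 of the 5 EGR2 genes were still among the top 5. EGR1 and EGR2 had r = 0.893 with each other. EGR1 and NAB2 had r = 0.510, which was −0.0965 without the RES libraries.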

How the data were processed

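The 18 RNA-seq libraries of Hep3B cells were placed in 6 groups of 3 by their titles. Per gene, the deposited counts are raw: the authors ran fastp on the reads, then STAR against GRCh38.p14, then featureCounts. Strand use in counting is not stated. Reads carry no molecular identifiers, so intervals and the floor of 3 counts cover counting error only. The members, the lists and the rule for named genes were chosen with earlier results of these data known. That rule names all 6 members, 4 genes the study names with EGR2, at most 2 called genes per list and comparison (largest absolute log2 fold change, mean of at least 1 CPM) and the 5 genes most alike EGR1 and EGR2. Some genes this rule names are not reported here.

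In R 4.3.3, all 18 libraries were fitted in edgeR 4.0.16 (filterByExpr with a minimum count of 10 and total of 15, TMM, quasi-likelihood, 1 term per group, prior count 0.125), after a check on simulated counts. Genes were called at a Benjamini-Hochberg adjusted p under 0.05. Tests of EGR2 had been planned in 7 comparisons and were kept in the 2 with RES. Alternatives were DESeq2 1.42.0, only the groups compared, RLE factors, no filter, at least 10 counts in every library, a replicate block, a prior count of 2, the DEG rule and leaving out each library. Scaling by total counts was added after seeing the data. Sequences and positions are from RefSeq (GRCh38.p14), and exon lengths from GENCODE v44.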

Additional observations from a re-analysis of the deposited data

How the results depend on the processing

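Of the members' log2 fold changes recomputed under the 26 alternatives, 1123 kept their direction and, where tested, their side of the threshold, 6 lost the call, 1 gained it (NAB1 in RES against Model) and 14 changed sign, each of the latter a NAB gene with an uncalled value near 0. Counts of members called stayed within 1.5 times of the reported ones in 285 cases and moved in 12. With the DEG rule in place of the adjusted p alone, 0 tested members passed in Model against Con, FUCO-2 against Model, RES against Model, the 4 comparisons with Con of FUCO and RES, and FUCO-2 against FUCO-1, by its own construction. With only the groups compared in the fit, 0 members were called in FUCO-2 against Con. Leaving out 1 library gave 0 to 1 in FUCO-2 against Con (0 without Con replicate 2 or FUCO-2 replicate 1) and 1 to 2 in FUCO-2 against Model (1 without FUCO-2 replicate 1). The cause was not tested.

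The values that changed sign were these. NAB1 in FUCO-0.5 against Con was 0.0046 with only the groups compared, 0.00029 with at least 10 counts in every library, 0.089 with total count scaling and −0.071 to 0.057 with 1 library left out. With total count scaling NAB1 in FUCO-2 against Con was 0.049 and NAB2 in Model against Con 0.025. With 1 library left out, NAB2 in Model against Con was −0.13 to 0.089, NAB1 in FUCO-2 against Model −0.039 to 0.044 and NAB2 in FUCO-0.5 against Con −0.044 to 0.18. The log2 ratio of NAB2 to NAB1 was then −0.074 to 0.21 in Model against Con, −0.067 to 0.23 in FUCO-0.5 against Con and −0.12 to 0.11 in FUCO-0.5 against Model.

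The labels do not say what same-numbered libraries have in common. Of 45 same-numbered pairs of libraries, 7 had deviations that correlated over 0.1 (r from −0.20 to 0.19). Of 18 libraries, 7 correlated best with their own number. Between libraries of a group, the chi-square per degree of freedom of their counts ran from 2.29 (Con replicates 2 and 3) to 19.2. FUCO-2 replicate 1, without which the NAB2 calls were lost, gave 19.2 and 18.4, against 5.68 between replicates 2 and 3. With a replicate block the tested members called were 1 in Model against Con, 1, 1 and 2 in FUCO-0.5, FUCO-1 and FUCO-2 against Model and 2 in RES against Model, and it changed no call of a member. EGR2 rests on 10 to 157 counts per library, so small differences in it were not detectable, and EGR3 and EGR4 could not be compared at this depth. The FUCO-2 calls of NAB2 fell short of the threshold in the settings given beside them, with a log2 fold change of 0.28 to 0.40.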
